A study of Mus musculus with 12 samples.

Results

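Carboxylesterases are serine hydrolases of the endoplasmic reticulum, abundant in hepatocytes, that cut the ester and amide bonds of many drugs and of neutral lipids such as triacylglycerol. Mice carry several tandem copies of the genes. Enzymes of the Ces1 family take part in the mobilisation of stored liver triacylglycerol for very low density lipoprotein (VLDL) and in the hydrolysis of xenobiotics, and Ces1c is the esterase that mouse liver releases into plasma. The 8 genes described here are Ces1b, Ces1c, Ces1d, Ces1e, Ces1f, Ces1g, Ces3a and Ces3b. They were chosen by name from the 24062 genes of the count tables, and all 8 were among the 12481 genes abundant enough to be tested, with 1 CPM or more in 2 or more libraries (CPM, counts as a rate of the TMM-scaled library total, is the unit of the values below).

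The livers of 12 female C57BL/6J mice were compared by RNA-seq, 6 on the control diet (mice 1 to 6) and 6 on the matched diet with BIBB-515 at 55 mg/kg body weight (mice 6 to 11). BIBB-515 inhibits lanosterol synthase, an enzyme of cholesterol synthesis. Mice of both diets were 6 weeks old on arrival, had 2 weeks of acclimation and 3 days on the control diet before randomisation, and no genetic change is given for either group. The labels give 11 mice for each diet, the study's reporting summary adds that 1 further mouse per diet was left out, at random in the control group, and mice were housed several to a cage, and the cages of the sequenced mice are not given in the sources used here.

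Read totals on genes ranged from 22764819 to 27914647 in the control libraries and from 24223939 to 31058370 in the BIBB-515 libraries (two-sided exact permutation test, p = 0.123). The libraries of a diet differed by more than sampling noise in all 30 pairs. The summed level of 12 hepatocyte markers, with albumin in the lead, was 185600 to 214900 CPM in the control mice. With BIBB-515 it was 146300 to 161600 CPM. By the test described below 5 of the 12 were lower with BIBB-515 and none higher, where 6.48% of all tested genes were called as lower. DESeq2 put 1 higher and 5 lower, and at an unadjusted p under 0.05 there were 1 higher and 7 lower. None of the defining fat cell markers Adipoq, Plin1, Lep, Retn and Cfd reached 1 CPM in any mouse, and Lep was at 0 throughout. The summed level of the 7 fat markers nevertheless ran from 504 to 946.5 CPM in the control mice and from 1363 to 1804 CPM with BIBB-515, nearly all of it from Car3, which hepatocytes also express. Among tested markers of leukocytes, Kupffer cells and endothelium none passed by edgeR or DESeq2, and none had an unadjusted p under 0.05. No bile duct, pancreas or gut marker passed either (1 bile duct marker by DESeq2 and 2 of these markers in all at an unadjusted p under 0.05), and of 7 stellate cell markers Lrat was lower by edgeR (2 lower by DESeq2 and 2 at an unadjusted p under 0.05). The part of these marker differences in the results below was not tested. In whole tissue, fewer cells of a type and less RNA per cell cannot be told apart.

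All 8 genes lie on chromosome 8 of the mm10 build, in 2 clusters. The Ces1 genes stand on the minus strand in alphabetical order over 280.5 kb, from Ces1b (chr8:93056727-93080017) to Ces1g (chr8:93302369-93337209). Ces3a (chr8:105048599-105058414) and Ces3b (chr8:105083755-105093591) lie on the plus strand, 25.3 kb apart. Between Ces1g and Ces3a are 11710 kb.

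The members are close copies, which matters for counts that leave out reads mapping to several places. Coding sequences of the GENCODE transcripts were from 73.6% to 91.2% identical over the 15 pairs of Ces1 genes, with Ces1b and Ces1c the closest pair. Ces3a and Ces3b were 95.3% identical, and the 12 pairs across the families were between 62.3% and 64.1% identical. Of all 50-base words in the Ces3a transcript, 30.9% also occur in Ces3b, and 26.1% of those of Ces3b occur in Ces3a. For Ces1c the share found in any other gene was 17.0% and for Ces1b 11.6%, while for Ces1d, Ces1e, Ces1f and Ces1g it was between 1.28% and 3.21%. Reads that fall wholly within such stretches cannot be assigned, so the levels of Ces3a, Ces3b, Ces1b and Ces1c are less certain than those of the other members.

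The ends of the coding sequences are shown because they are where the secreted and the retained enzymes differ. In carboxylesterases that stay in the endoplasmic reticulum the last codons encode a retrieval tail, which Ces1c lacks. The last 30 coding bases of each member are printed 5′ to 3′ from the GENCODE transcripts of GRCm38, with the 15 bases of the last codons and the stop in capitals.
Ces1b: gaccctactgagcacAGAGAACACAAATGA
Ces1c: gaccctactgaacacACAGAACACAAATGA
Ces1d: ccatcccacagggaaCATGTTGAGCTCTGA
Ces1e: caactgccgacagaaCACACTGAGCTGTGA
Ces1f: caaccccagccatacCACAATGAGCTGTGA
Ces1g: tcatcccatagggaaCATGTTGAACTGTGA
Ces3a: agaagcaggaaagttCCAGAGGAGCTCTGA
Ces3b: agaagcaggaaagttCCAGAGGAGCTCTGA
Ces1b shared 14 of these 15 bases with Ces1c and 5 with Ces1d. Ces1g shared 13 with Ces1d, and Ces1e, Ces1f, Ces3a and Ces3b each shared 11 with Ces1d. Ces3a and Ces3b were identical over the whole stretch.

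The difference between the diets was tested for every gene that passed the filter with the quasi-likelihood test of edgeR, with the Benjamini-Hochberg correction taken over all 12481 of them (false discovery rate, FDR). Ces1d, Ces1e and Ces1g rose with BIBB-515 and Ces3b fell, while Ces1b, Ces1c, Ces1f and Ces3a did not pass an FDR of 0.05. Thus 4 of the 8 members were called, where 13.7% of all tested genes were called, 7.18% as higher and 6.48% as lower. In 3 members the values of the diets did not overlap, against 7.07% of all tested genes. The median log2 fold change of the 8 members was 0.20, and that of all tested genes -0.01.

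**Figure D1:**
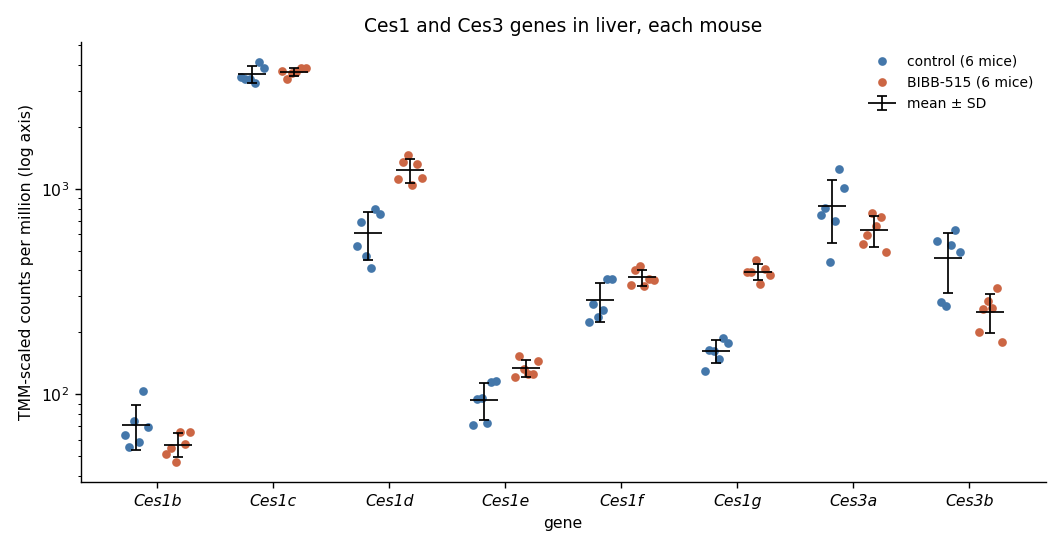
TMM-scaled CPM (log axis) of the 8 genes in every mouse, control in blue and BIBB-515 in orange, with the mean and SD of 6 mice in black. The diets are fully apart for Ces1d, Ces1e and Ces1g, and for Ces3b 4 of the 6 BIBB-515 mice lie below the lowest control mouse.

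Ces1g and Ces1d, both lipid-hydrolysing esterases of the endoplasmic reticulum, rose the most among the members. Ces1g had a lowest value of 130.0 CPM, a median of 162.9 CPM and a highest value of 188.6 CPM in the control mice, and 343.4, 393.6 and 450.3 CPM with BIBB-515. The lowest BIBB-515 mouse therefore stood well above the highest control mouse. Its mean went from 162 ± 20.8 to 394.6 ± 35.2 CPM (SD, n = 6 each), a log2 fold change of 1.29 (SE 0.09, edgeR FDR = 6.78e-07). By p it took rank 14 among all tested genes. As a fold, the difference was 2.44-fold, with a 95% interval from 2.13 to 2.79.

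Ces1d encodes the triacylglycerol hydrolase of mouse liver, which releases fatty acids from stored lipid. Its control values had a lowest of 411.3, a median of 609.9 and a highest of 792.1 CPM, and those with BIBB-515 a lowest of 1040, a median of 1218 and a highest of 1453 CPM. All 6 BIBB-515 mice were above all 6 control mice. The means were 608.5 ± 159 and 1232 ± 165 CPM (SD, n = 6 each), and the log2 fold change was 1.02 (SE 0.16, edgeR FDR = 0.000764), or 2.03-fold with a 95% interval from 1.61 to 2.55. Control mice 5 and 6, at 792.1 and 755.1 CPM, were the highest of their diet for Ces1d, Ces1e, Ces1f and Ces1g alike.

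Ces1f, a second triacylglycerol hydrolase related to Ces1d, did not pass the test. It ran from 225.4 to 364.6 CPM with a median of 265.0 in the control mice, and from 334.6 to 419.4 CPM with a median of 360.7 in the BIBB-515 mice. The ranges overlapped, with 2 BIBB-515 mice above the highest control mouse, although 6 of 6 were above the control mean. The log2 fold change was 0.37 (SE 0.12, edgeR FDR = 0.0605), with a 95% interval from 0.10 to 0.63, and the two-sided exact permutation test of this gene alone gave p = 0.0325. The call depended on single mice and on the model. Without control mouse 5 the log2 fold change was 0.45 (FDR = 0.0200) and without control mouse 6 it was 0.45 (FDR = 0.0227), and DESeq2, limma-voom and a surrogate variable as covariate also put Ces1f past the threshold, with FDR values of 0.0258, 0.0496 and 0.00908.

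Ces1e encodes egasyn, the esterase that holds beta-glucuronidase in the microsomes. Values in the control mice had a lowest of 70.5, a median of 95.3 and a highest of 116.4 CPM. With BIBB-515 they were 121.4, 128.8 and 153 CPM, so that the groups were separate by a gap of a few CPM. The log2 fold change was 0.51 (SE 0.12, edgeR FDR = 0.0133), or 1.42-fold with a 95% interval from 1.19 to 1.70. Gusb, the gene of beta-glucuronidase, was higher as well, at 31.7 ± 3.86 CPM in the control mice and 41.7 ± 1.21 CPM with BIBB-515 (SD, n = 6 each; log2 fold change 0.40, SE 0.07, FDR = 0.00258).

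Ces1c, the plasma esterase, was by far the most abundant member and did not pass the test. Control values had a lowest of 3258, a median of 3466 and a highest of 4123 CPM, and BIBB-515 values a lowest of 3417, a median of 3701 and a highest of 3874 CPM. The BIBB-515 range lay inside the control range. The log2 fold change was 0.04 (SE 0.08, edgeR FDR = 0.786), and the 95% interval of the fold, from 0.915 to 1.15, was the narrowest of the members.

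Ces1b, the member closest to Ces1c in sequence, had the lowest level. It ran from 55.5 to 103.6 CPM with a median of 66.5 in the control mice and from 47.0 to 65.7 CPM with a median of 55.9 with BIBB-515. The ranges overlapped, and 6 of 6 BIBB-515 mice were below the control mean, which control mouse 5 at 103.6 CPM drew upward. Its log2 fold change was -0.32 (SE 0.14) and did not pass after adjustment (edgeR FDR = 0.138). Without control mouse 5 it was -0.17 (FDR = 0.287).

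Ces3b, a liver esterase of the second cluster, was the only member that fell by this test, and Ces3a joined it only under the alternatives named below. The control mice had a lowest value of 267.8, a median of 512.1 and a highest value of 627.3 CPM, and the BIBB-515 mice 180.0, 261.0 and 330.2 CPM. The ranges overlapped through control mice 2 and 3, at 281.9 and 267.8 CPM, whereas the other control mice lay between 494.0 and 627.3 CPM. The mean went from 460.0 ± 150 to 252.5 ± 54.9 CPM (SD, n = 6 each), a log2 fold change of -0.87 (SE 0.21, edgeR FDR = 0.0149), or 1.82-fold lower. Its two-sided exact permutation p was 0.0173, and in Ces1d, Ces1e and Ces1g it was 0.00216, the lowest that labelings of 6 against 6 mice can give.

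Ces3a, the near copy of Ces3b, varied more between control mice than any other member, with a coefficient of variation of 33.8%. It had a lowest value of 442.0, a median of 772.2 and a highest of 1250 CPM in the control mice, and 492.2, 625.5 and 761.4 CPM with BIBB-515. The BIBB-515 range lay within the control range, and 6 of 6 BIBB-515 mice were below the control mean. The log2 fold change of -0.39 (SE 0.20) did not pass (edgeR FDR = 0.201). Leaving out control mouse 3 changed this call: without it the log2 fold change was -0.51 (FDR = 0.0416), and with a surrogate variable as covariate it was -0.34 (FDR = 0.0145). Without control mouse 5, the highest control mouse, it was -0.22 (FDR = 0.413).

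**Figure D2:**
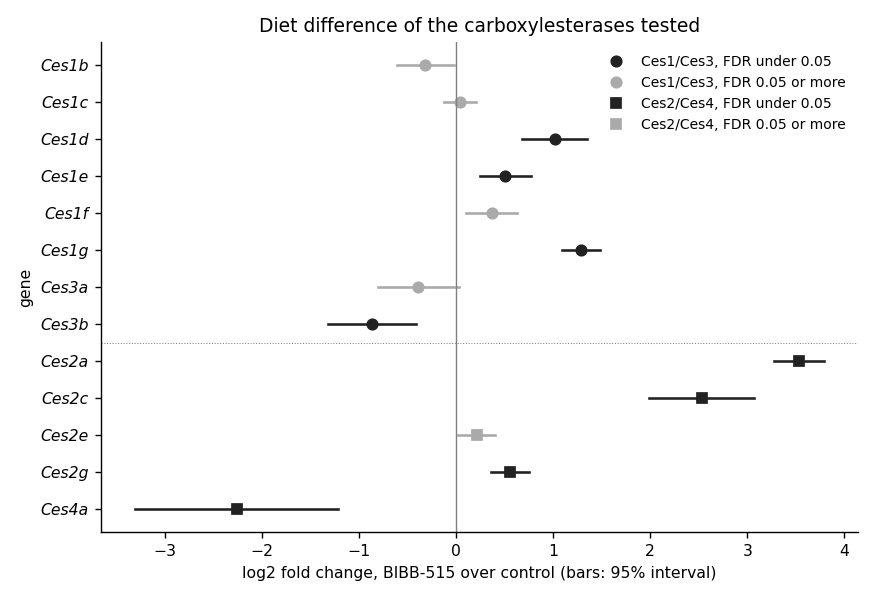
Log2 fold change of BIBB-515 over control with its 95% interval for the 8 Ces1 and Ces3 genes (circles) and the 5 other carboxylesterases tested (squares), black where the FDR is under 0.05 and grey where it is not. Ces1d, Ces1e and Ces1g lie to the right of 0, Ces3b lies to the left, and the interval of Ces1c is the narrowest.

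Whether members differed from each other in their response was tested on the ratio of 2 members within each mouse, which does not depend on how the libraries were scaled. Of the 28 pairs, 23 changed between the diets at an adjusted p under 0.05 (two-sided exact permutation test, Benjamini-Hochberg over the 28 pairs), and in 16 pairs the diets did not overlap. The pairs share genes and are not independent, since a member that moves by itself can change every ratio it enters. The widest change was that of Ces1g over Ces3b. Its log2 ratio went from between -2.10 and -0.72 in the control mice to between 0.31 and 1.07 with BIBB-515, a difference of 2.11 (exact permutation p = 0.00216, adjusted p = 0.00379). In the control mice Ces3b thus had more counts than Ces1g in 6 of 6, and with BIBB-515 Ces1g had more than Ces3b in 6 of 6.

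Within the Ces1 cluster the neighbours Ces1c and Ces1d parted: the log2 ratio of Ces1c over Ces1d lay between 2.31 and 2.99 in the control mice and between 1.33 and 1.82 with BIBB-515, a difference of -1.01 (exact permutation p = 0.00216, adjusted p = 0.00379). Ces1d also moved against Ces1e, by 0.52, and against Ces1f, by 0.66, without overlap between the diets in either ratio. For Ces1d over Ces1g the difference was -0.24 and for Ces1e over Ces1f 0.14, and neither ratio passed (exact permutation p = 0.0758 and 0.130). Ces1b fell relative to its close copy Ces1c by 0.34 on the log2 scale (exact permutation p = 0.0130, adjusted p = 0.0165), although neither gene was called on its own. Ces3a rose relative to Ces3b by 0.49 (exact permutation p = 0.0260, adjusted p = 0.0316), with overlap of the diets. The remaining ratios that did not pass were those of Ces1b over Ces3a, Ces1b over Ces3b and Ces1c over Ces3a, with differences of 0.04, 0.53 and 0.38.

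**Figure D3:**
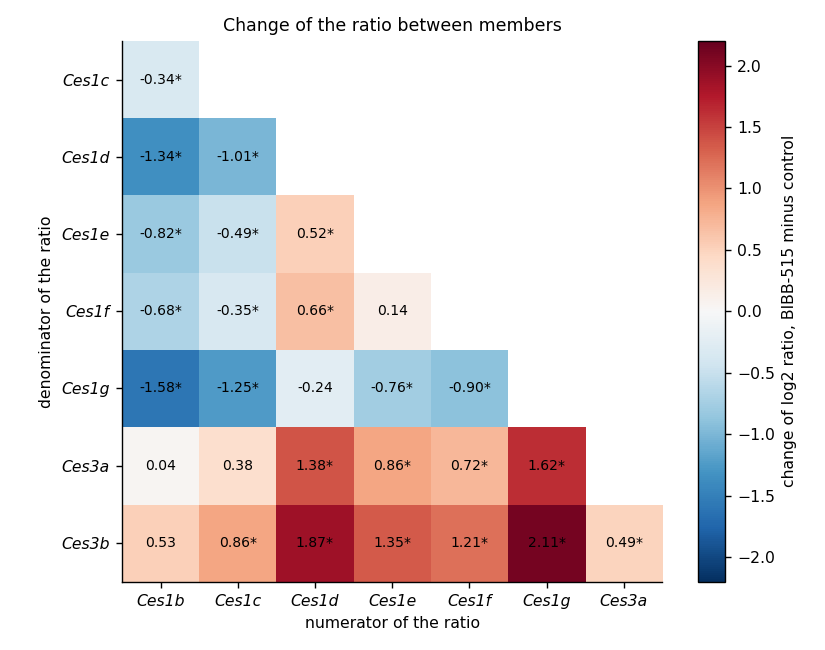
Difference between the diets (BIBB-515 minus control) of the mean log2 ratio of 2 members within a mouse, numerator in columns and denominator in rows, with an asterisk where the adjusted exact permutation p over the 28 pairs is under 0.05. The changes run from -1.58 for Ces1b over Ces1g to 2.11 for Ces1g over Ces3b, and 5 pairs carry no asterisk.

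Levels of different members can be compared only per length, here as TMM-scaled reads per kilobase of exon, scaled to library size as CPM is (RPKM). In the control mice the medians ran in the order Ces1c (1885 RPKM), Ces3a (376.9), Ces1d (310.2), Ces3b (248.0), Ces1f (138.4), Ces1g (71.2), Ces1e (46.0) and Ces1b (33.8). The ranges of neighbours in this order overlapped from Ces3a to Ces1f and again for Ces1e and Ces1b. Within the same mouse Ces1e was nevertheless above Ces1b in 6 of 6 control mice, while Ces3a was above Ces1d in 5 of 6, Ces1d above Ces3b in 4 of 6 and Ces3b above Ces1f in 5 of 6. With BIBB-515 the order of medians was Ces1c (2013 RPKM), Ces1d (619.8), Ces3a (305.3), Ces1f (188.3), Ces1g (172.0), Ces3b (126.4), Ces1e (62.1) and Ces1b (28.4). Ces1d now stood above Ces3a without overlap, and only the ranges of Ces1f with Ces1g and of Ces1g with Ces3b overlapped, although within the mouse the higher of each pair was above the other in 6 of 6. All 8 were abundant messages, since in the control mice 87.0% of all tested genes lay below Ces1b and 99.8% below Ces1c per length.

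As a share of the summed per-length level of the 8 genes, Ces1c took between 56.9% and 68.3% in the control mice and between 53.2% and 60.7% with BIBB-515. The share of Ces1d was 7.37% to 11.6% in the control mice and 15.6% to 20.0% with BIBB-515, and that of Ces1g 1.86% to 2.60% and 4.42% to 5.26%. The share of Ces3b was 4.50% to 9.04% in the control mice and 2.53% to 4.26% with BIBB-515, here without overlap. The shares add to a fixed total, so a higher share of Ces1d lowers the others. The summed level itself had a median of 3040 RPKM in the control mice (range 2725 to 3939) and 3447 RPKM with BIBB-515 (range 3385 to 3750). For the 6 Ces1 genes these medians were 2459 and 3075 RPKM, and for the pair of Ces3 genes 613.9 and 431.7 RPKM.

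**Figure D4:**
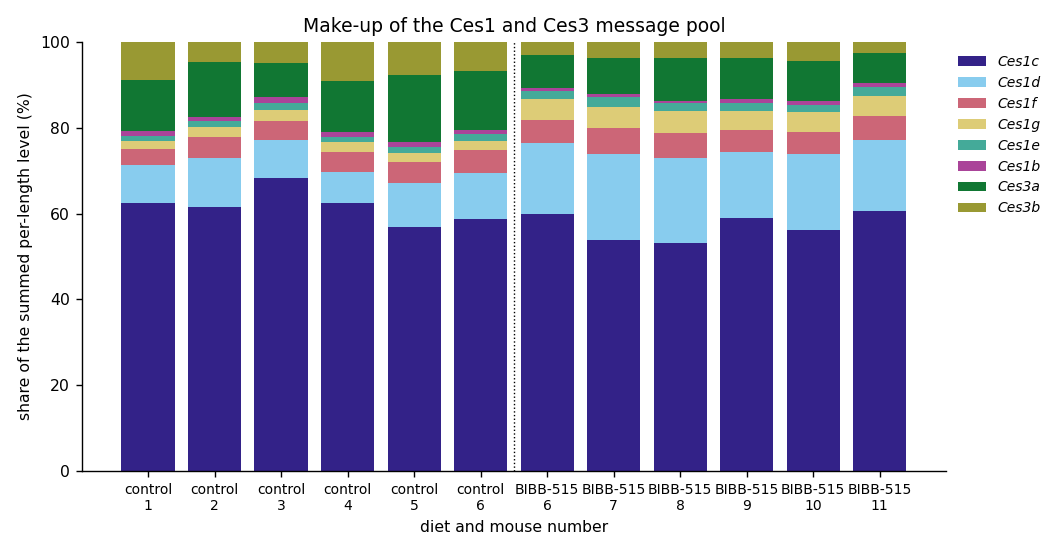
Share of each gene in the summed per-length level of the 8 Ces1 and Ces3 genes in each mouse (percent), control mice left of the dotted line and BIBB-515 mice right of it. Ces1c takes at least 53.2% in every mouse, the light blue share of Ces1d runs from 15.6% to 20.0% with BIBB-515, and the olive share of Ces3b is at most 4.26% in all 6 BIBB-515 mice.

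The exon tables were tested in the same way over 70564 exons. At an FDR under 0.05, BIBB-515 mice were higher in 3.38% of them and lower in 2.49%. All 14 exons of Ces1d were higher, with log2 fold changes from 0.92 to 1.19, and so were all 14 of Ces1g, from 1.19 to 1.42. All 13 exons of Ces3b were lower, from -0.93 to -0.83. The called differences of these genes therefore ran along the whole transcript. In Ces1e 6 of 14 exons were higher, and the log2 fold changes of all 14 lay between 0.43 and 0.59. In Ces1f exon 2 was the only one of 14 to pass, with values from 0.23 to 0.48. None of the 13 exons of Ces1c passed with edgeR, with values from -0.05 to 0.11, nor did any of the 13 of Ces3a (from -0.52 to -0.28) or of the 12 tested of Ces1b (from -0.40 to -0.26). At an unadjusted p under 0.05 these numbers were 0, 8 and 7. Exons of a gene share its mice and most of its reads, so they are not further replicates.

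**Figure D5:**
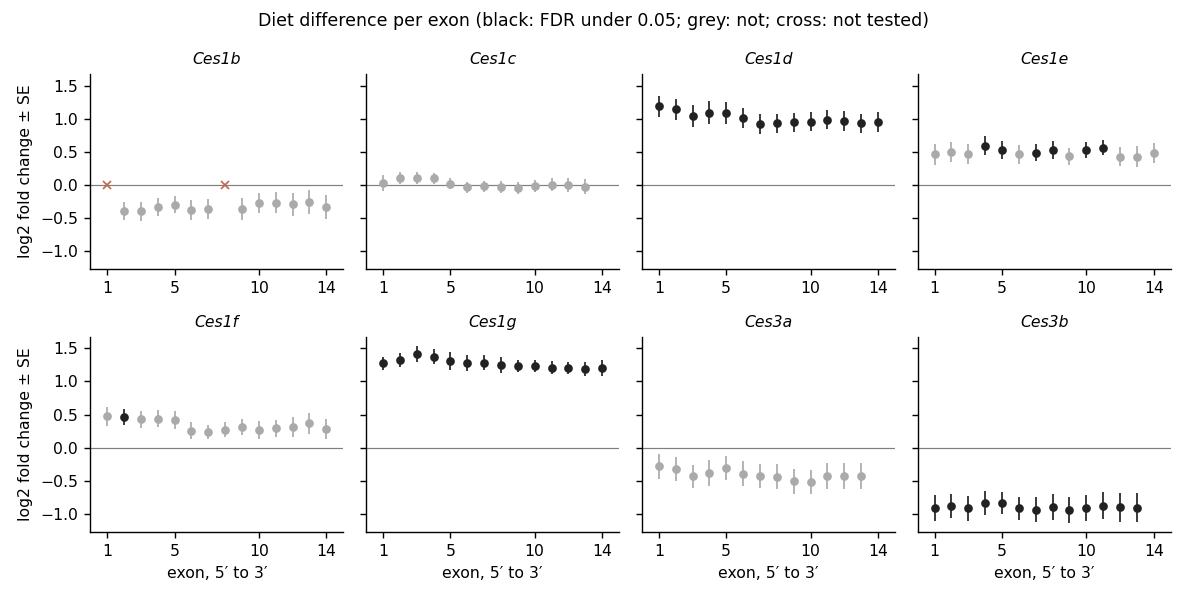
Log2 fold change of BIBB-515 over control with its SE for each annotated exon of the 8 genes, numbered 5′ to 3′, black where the exon FDR is under 0.05, grey where it is not, and an orange cross, set at 0 only for display, for the exons not tested. Ces1d and Ces1g are black in all 14 exons and Ces3b in all 13, each over a narrow range of values.

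Exons 1 and 8 of Ces1b were the only member exons under the filter. Exon 8, of 39 bases (chr8:93067015-93067053), had 0.00504 ± 0.0123 CPM in the control mice and 0 with BIBB-515, while its neighbours exon 7 and exon 9 had 3.58 ± 0.83 and 6.88 ± 1.74 CPM in the control mice (SD, n = 6). Exon 8 of Ces1e, also of 39 bases, had 4.69 ± 1.10 CPM in the same mice (SD, n = 6). Reads of this Ces1b exon were thus nearly absent in both diets. Exon 1 of Ces1b, of 153 bases, had 0.746 ± 0.256 CPM in the control mice (SD, n = 6), and RefSeq lists a further start of this gene inside it. The short annotated isoforms of Ces3a and Ces3b had 0 counts of their own in all 12 mice, and reads that only the long isoform can hold made up 1.21% and 1.07% of the Ces3a counts and 4.38% and 4.13% of the Ces3b counts in the control and the BIBB-515 mice.

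The promoters of 5 members (Ces1b, Ces1c, Ces1e, Ces1g and Ces3b) were in the RefSeq table used here. The 250 bases before the start are printed for the pair of close copies, for the member with the largest rise and for the member that fell (GRCm38.p6, 5′ to 3′ on the strand of the gene). Capitals mark the longest run that Ces1b and Ces1c have in common, of 58 bases, and the other promoters have no capitals because they do not hold it. Ces1b lies at chr8:93080018-93080267 (minus), Ces1c at chr8:93131284-93131533 (minus), Ces1g at chr8:93337210-93337459 (minus) and Ces3b at chr8:105083505-105083754 (plus).
Ces1b: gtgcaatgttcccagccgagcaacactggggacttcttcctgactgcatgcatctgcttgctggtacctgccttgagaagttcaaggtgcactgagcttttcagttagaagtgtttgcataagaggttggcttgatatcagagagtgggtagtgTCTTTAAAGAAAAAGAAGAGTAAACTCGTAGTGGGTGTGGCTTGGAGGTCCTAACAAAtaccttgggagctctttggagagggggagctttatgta
Ces1c: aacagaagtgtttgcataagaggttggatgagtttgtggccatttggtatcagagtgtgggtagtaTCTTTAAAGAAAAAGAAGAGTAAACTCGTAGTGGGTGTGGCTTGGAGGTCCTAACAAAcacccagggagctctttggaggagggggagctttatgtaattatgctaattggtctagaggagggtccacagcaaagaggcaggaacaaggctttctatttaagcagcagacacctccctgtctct
Ces1g: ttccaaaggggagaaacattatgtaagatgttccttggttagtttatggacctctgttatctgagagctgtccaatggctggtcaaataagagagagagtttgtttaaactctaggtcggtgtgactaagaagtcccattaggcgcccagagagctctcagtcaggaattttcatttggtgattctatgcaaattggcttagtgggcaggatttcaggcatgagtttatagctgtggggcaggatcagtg
Ces3b: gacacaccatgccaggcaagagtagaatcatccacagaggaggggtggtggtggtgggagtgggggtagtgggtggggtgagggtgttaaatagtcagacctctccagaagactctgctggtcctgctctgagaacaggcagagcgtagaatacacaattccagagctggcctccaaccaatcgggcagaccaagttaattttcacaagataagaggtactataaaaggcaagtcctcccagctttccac
The promoter windows of Ces1b and Ces1c were 95.4% identical over the 197 bases that could be aligned, and no other pair of different genes was above 64.2%. Nuclear receptors of the xenobiotic response bind repeats of the letters AGGTCA. Neither AGGTCA nor its reverse complement TGACCT occurred in the windows of the 5 members, which run from 250 bases before to 50 after the start, while 16.3% of 32851 promoter windows of this length hold either. A pair of these letters in the same direction 4 bases apart, with up to 2 mismatches over the pair, was also not found in the 5, and 3.02% of all windows hold it. These letters may lie outside the windows, so nothing follows about a factor.

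Other carboxylesterases lie mostly in the same region as Ces3a, and 5 of the 10 in the tables passed the filter. Of these, 3 rose with BIBB-515, 1 fell and 1 did not pass, where 7.18% of all tested genes were called as higher and 6.48% as lower. Ces2a, a drug-hydrolysing esterase, went from 179.5 ± 28.9 to 2077 ± 192 CPM (SD, n = 6 each), a log2 fold change of 3.53 (SE 0.12, edgeR FDR = 2.07e-10), which is larger than that of any Ces1 or Ces3 gene. Ces2c rose by 2.53 on the log2 scale from 4.64 ± 2.39 CPM (FDR = 1.94e-05) and Ces2g by 0.56 (FDR = 0.00126), and Ces2e, at 302 ± 43.3 CPM in the control mice, had a log2 fold change of 0.21 (FDR = 0.127). Ces4a, the next gene after Ces3b, fell from 1.91 ± 1.37 to 0.391 ± 0.167 CPM (log2 fold change -2.26, SE 0.49, FDR = 0.00782), with overlap of the diets. Those untested for low counts were Ces1a, with 38 counts over all 12 mice, Ces2b with 28, Ces2h with 150, and Ces2f and Ces5a with 0.

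Of 28 genes commonly induced through the xenobiotic receptors CAR and PXR, 21 were higher and none lower by edgeR (2 lower at an unadjusted p under 0.05 and 1 by DESeq2), with a median log2 fold change of 1.57. Among them Gsta1, a glutathione transferase, was higher by 6.38 on the log2 scale, Cyp2c55, a cytochrome P450, by 5.98, and Gstm3 by 5.72. The rises of Ces1d and Ces1g, at 1.02 and 1.29, were below that median. The receptors and their partners themselves mostly did not pass. Of 19 nuclear receptors and factors 1 was higher, Esrra (log2 fold change 0.39, FDR = 0.0110). The genes of PXR and CAR, Nr1i2 and Nr1i3, had values of 0.29 (FDR = 0.0658) and 0.02 (FDR = 0.929). Beside both lists, 7.18% of all tested genes were called as higher and 6.48% as lower.

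Of 17 tested genes for other hydrolases of neutral lipid, the kind of substrate that Ces1d cleaves, or of related lipids, 1 was higher and 3 were lower. The 17 include the cofactor Abhd5. Lipe, hormone-sensitive lipase, was higher by 0.27 on the log2 scale (FDR = 0.0331). Lipg, endothelial lipase, had a log2 fold change of -0.79 (FDR = 0.0470), Aadac, an arylacetamide deacetylase of the endoplasmic reticulum, one of -0.24 (FDR = 0.0236), and Faah, which cleaves fatty acid amides, one of -0.20 (FDR = 0.0349). At an unadjusted p under 0.05, 3 were higher and 8 lower. A list of triacylglycerol synthesis, lipid droplets and the assembly and export of VLDL had 24 tested genes. Of these 3 were higher (Fitm1 by 0.80, P4hb by 0.28 and Dgat1 by 0.24 on the log2 scale) and 2 lower (Apoa4 at -1.15 and Apoc1 at -0.30). A list of esterases, lactonases, epoxide hydrolases and other enzymes, Aadac again among them, had 14 tested genes. Of these 5 were higher, with Ephx1, microsomal epoxide hydrolase, at 1.61, Afmid at 0.54 and Gusb at 0.40. The 2 lower ones were Aadac and Pon2 (-0.22). The median log2 fold changes of these lists were -0.17 for the lipid hydrolases, 0.05 for the list with the VLDL genes and 0.11 for the list with the esterases. Beside these lists, 7.18% of all tested genes were called as higher and 6.48% as lower, with a median of -0.01.

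Within 500 kb of a member 27 other genes were tested, and 4 rose and 2 fell with BIBB-515. Over all tested genes 7.18% were called as higher and 6.48% as lower. Without the carboxylesterases 22 remained, of which Nol3 was higher (from 0.526 to 1.51 CPM, FDR = 0.00204) and Cbfb lower (-0.23, FDR = 0.0405). Beside the Ces1 row the nearest tested gene was Lpcat2, 137.4 kb from Ces1b, which did not pass (0.32, FDR = 0.283), and on the side of Ces1g no gene within the window passed the filter. The nearest tested genes beside the Ces3 pair were Ces2g and Ces4a. Outside the carboxylesterases, the neighbourhood thus held 1 call in each direction.

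How far members followed each other between mice of the same diet differed from pair to pair. With each diet centred on its own mean, Pearson's r of log2 CPM over the 12 mice ran from 0.20, for Ces1b with Ces1d, to 0.83, for Ces1d with Ces1f, over the 15 pairs of Ces1 genes. It was 0.72 for Ces3a with Ces3b, 0.76 for Ces1d with Ces3a and 0.75 for Ces1f with Ces3a, and 0.07 for Ces1g with Ces3b and -0.12 for Ces1e with Ces3b. In the 6 control mice alone all 15 Ces1 pairs had a positive r, from 0.46 to 0.94, and in the 6 BIBB-515 mice 7 of the 15 were negative, down to -0.85 for Ces1b with Ces1g. Part of the pattern in each diet rested on few mice. Leaving out both control mice farthest from the median of the first gene gave -0.49 for Ces1c with Ces1f and -0.28 for Ces1c with Ces1g. The other Ces1 pairs of that diet stayed positive. The same step in the BIBB-515 mice moved Ces1c with Ces1e from -0.50 to 0.71 and Ces1b with Ces1f from -0.62 to 0.04. The other negative Ces1 pairs with BIBB-515 stayed negative. Whether r differs between the diets was not tested. These values of r are descriptions, and in each mouse both genes of a pair share the library and its scaling. Of 56 correlations tested within a single diet (6 mice, exact permutation), none passed after adjustment over the 56, and the lowest adjusted p was 0.0778. Genes that followed a member closely on this centred scale over the 12 mice were searched for among 11161 others. Genes whose mean log2 CPM was below 1 were left out of this search. The closest 3 per member are named. They are the extremes of 11161 values, and whether a search of this size gives such r by chance was not tested. For Ces1d they were Nfe2l1 (r = 0.98), Psap (0.96) and Cxcl10 (0.95). Those of Ces1g were Car3 (0.93), Slc39a4 (0.92) and Rad51d (0.91), and those of Ces1e Galnt2 (0.90), Fiz1 (0.89) and Pebp1 (0.88). For Ces1f they were Tgoln1 (0.93), Serpina3g (0.93) and 2010320M18Rik (0.92), for Ces1b Fam89b (0.94), Lad1 (0.88) and Lemd2 (0.87), and for Ces1c 1300017J02Rik (0.93), Mrpl28 (0.92) and Zfp422 (0.92). Those of Ces3a were Grhpr (0.96), Mmd (0.96) and Anapc5 (0.96), and those of Ces3b Pdilt (0.97), Slc22a30 (0.97) and Igf1 (0.94). The 3 genes nearest to Ces3a and the 3 nearest to Ces3b were different ones. With only 3 named of 11161, nothing follows from this about the pair, whose own r was 0.72.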

How the data were processed

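For each of 12 livers the authors deposited whole-number counts of reads per gene, per transcript and per exon and, in a further table, of primary alignments. Per the file headers they were made with featureCounts of Subread 1.6.3 on a UCSC annotation of mm10, without strand and, for genes, without reads mapping to several places or overlapping several genes. The submitters' processing notes name STAR 2.5.3a. The extract protocol in the labels describes RNA isolation and qPCR, and the library kit is not given in the sources used here.

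Genes that reached 1 CPM in 10% of libraries or more (2 of 12) were kept. After TMM scaling, a quasi-likelihood model with a single diet term was fitted (edgeR 4.0.16, R 4.3.3), and the Benjamini-Hochberg correction covered every gene kept. Intervals use the t quantile of the fit. Single values were compared with two-sided exact permutation tests over all labelings, on log2 CPM with a prior count of 2. Where an annotated exon was listed for several transcripts it was used once. RPKM used TMM-scaled library sizes and the exonic length of the tables. With between 22764819 and 31058370 reads on genes per mouse, the common biological coefficient of variation was 0.143. The p-values set the diet difference against the spread between these mice. The part of cage in the differences was not tested, since the cages are not given.

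Transcript sequences are from GENCODE vM21 (GRCm38), promoters from RefSeq (GRCm38.p6). Identity was computed on coding bases with Biopython 1.88, since protein sequences were not used here, and in place of the protein comparison planned. Named genes are the 8 members, every tested carboxylesterase, at most 3 called genes per direction of each other list by size of change, at most 3 called neighbours per direction with the nearest tested ones, and the 3 genes most like each member. Nr1i2 and Nr1i3 were named after their values were seen. The members and lists were chosen with earlier results of these data known. Alternatives were DESeq2 1.42.0, upper-quartile scaling, limma-voom (limma 3.58.1), no filter, at least 1 CPM in 6 libraries, the primary tables, 1 surrogate variable from sva 3.50.0, a prior count of 0.5, TPM, a window of 200 kb, and each mouse left out.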

Additional observations from a re-analysis of the deposited data

Results flagged for a closer look

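In the 5 carboxylesterases outside the Ces1 and Ces3 families, in the 8 members and in the total counts, each examined in both diets, 1 mouse stood apart from its diet by Dixon's criterion. For Ces2e, BIBB-515 mouse 10 was the lowest of its diet at 312.0 CPM, with the next mouse at 349.1 CPM, and the gap took 0.629 of the range of the 6 mice, just above the 95% critical value for 6 samples. With 28 groups of 6 mice examined, chance alone gives about 1.4 such cases. Ces2e is not a member, and no member had such a mouse.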

How the results depend on the processing

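No diet difference of a member reversed its direction at the gene level under any alternative run. Of the 13 exons of Ces1c, none of them called, 7 had a log2 fold change above 0 with the main filter and 5 when 1 CPM in 6 libraries was asked for. Ces1d, Ces1e, Ces1g and Ces3b remained past an FDR of 0.05 under all 7 other models, scalings, filters and tables and with each of the 12 mice left out, with log2 fold changes without a mouse from 0.94 to 1.11, 0.44 to 0.59, 1.23 to 1.34 and -0.97 to -0.75. Ces1b and Ces1c passed under none, with ranges from -0.38 to -0.17 and from 0.02 to 0.09. Ces1f passed with DESeq2 (log2 fold change 0.37), limma-voom (0.39) and the surrogate variable (0.38), and its values without a mouse ran from 0.31 to 0.45. Ces3a passed with the surrogate variable (-0.34), and its values without a mouse ran from -0.51 to -0.22. The number of members that were lower was then 2 in place of 1, with the surrogate variable as without control mouse 3. The cause was not tested. Over all genes 1705 were called, 2244 with DESeq2, 2407 with the surrogate variable, and from 1199 to 1865 without a mouse. With DESeq2 the lipid hydrolases had 2 genes higher and 5 lower and the nuclear receptors 2 higher. TPM changed the scale of every level by construction and not the order within a mouse. No paired analysis was possible because the diets share a single replicate number. Depth did not limit the members, each with at least 1317 counts in every mouse.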
